A study of Mus musculus with 24 samples.

Results

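The 6 genes described here are Chrna1, Chrnb1, Chrnd, Chrng and Chrne, which encode the subunits of the muscle acetylcholine receptor, and Chrna9, a nicotinic subunit best known from the hair cells of the inner ear. They were found by their annotation: 9 of the 46632 probes on the array are assigned to them, and all 9 were among the 21997 probes kept because they were detected on at least 3 arrays. Chrnd has 3 probes, Chrng has 2 and the other genes have 1 each. The kept probe with the highest mean signal is called the lead probe of its gene.

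RNA came from the triceps surae, the calf muscle group, of mice of strain C57/Bl6 aged 6 months, either lacking MuRF1, the ubiquitin ligase encoded by Trim63 (KO), or wild type (WT). Denervated muscle was taken 3 or 14 days after the sciatic nerve had been resected on 1 side, and control mice were kept in parallel without surgery, so an effect of the operation cannot be told apart from that of nerve loss. The 8 groups were KO denervated, WT denervated, KO control and WT control muscle at day 3, and the same 4 at day 14, each with 3 samples on Illumina 1-colour BeadChips. Whether 3 separate mice stand behind a group is not stated in the labels, and p-values here reflect only how far these samples differ from each other. How the Trim63 allele was made is not stated either.

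The muscle receptor is a pentamer opened by acetylcholine from the motor nerve: adult receptors hold alpha, beta, delta and epsilon subunits, and fetal receptors hold gamma in the place of epsilon. In innervated fibres the subunit genes are transcribed mainly by the nuclei under the synapse, and loss of the nerve is known to bring back transcription along the fibre. MuRF1 has been tied to the turnover of the receptor after it is internalised.

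The 24 arrays had a median intensity of 124.7 to 199.8 and detected 15532 to 18755 probes at a detection p under 0.05. The 3 day 3 denervated KO arrays detected 17055 to 18520 probes and the other day 3 arrays 15532 to 16815, while day 14 arrays detected 16875 to 18755. Trim63 lay at 4.83 to 5.86 log2 normalized intensity on the KO arrays, against 9.05 to 11.37 on the WT arrays, and its signal still counted as detected on the 6 KO arrays of day 14. All 9 skeletal muscle fibre markers were detected on every array. After denervation 1 of 9 was lower in KO (Myh2) and 3 in WT (Myh1, Myh2 and Myh4) at day 3. At day 14, 4 were lower in KO (Acta1, Tnnc2, Myh1 and Myh4) and 2 in WT (Ckm and Myh4). No fibre marker was higher after denervation in either genotype at either time. None of the 6 motor axon markers, among them Chat and Slc18a3, was detected on any array. Of the satellite cell markers, Myf5 and Calcr were detected on no array and Pax7 only among the KO denervated samples of day 3. The summed signal of the 8 satellite cell and myoblast markers was 21843 to 30917 in the denervated groups, against 5137 to 6437 in the control groups, and without Myf6, which muscle fibres also express, it was 1433 to 2411 against 1073 to 1385. Of 5 kept markers of this list, Cdh15 and Myf6 were higher in all 4 denervation comparisons. Megf10 was higher in KO at day 3 and in WT at day 14, and Cxcr4 was lower in KO at day 3. Of 7 fibroblast markers, Dcn was lower in WT muscle at day 3 and in either genotype at day 14. Thy1 was lower in WT at day 14, and Lum was higher in KO at day 3. Of 3 kept macrophage and leukocyte markers, none was higher after denervation in KO and 3 were in WT muscle at day 3, and 2 were higher in KO and 1 in WT muscle at day 14. Endothelial markers were lower after denervation for none of 6 in KO and 4 of 6 in WT muscle at day 3 and for 3 of 6 in either genotype at day 14, and 1 of 6, Tek, was higher in KO at day 3. Of 3 kept Schwann cell markers, Mbp was lower in all 4 denervation comparisons. Sox10 was higher in KO and Ngfr in WT muscle at day 3, and both were higher in KO muscle at day 14. Of 4 adipocyte markers, 1 was lower in KO (Lep) and 2 in WT (Adipoq and Lep) at day 3, and none in KO and 2 in WT (Adipoq and Plin1) at day 14. Of all kept probes, 16.2% were higher after denervation in KO and 16.2% in WT muscle at day 3, and 15.9% and 18.8% at day 14. Those lower were 14.3% in KO and 15.4% in WT muscle at day 3, and 15.6% and 17.9% at day 14. Marker lists this short cannot be set closely against such shares. The part of these markers in the receptor results was not tested, and in whole muscle fewer cells of a type cannot be told apart from less RNA per cell.

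Promoter windows from RefSeq (GRCm38.p6) were found for 5 of the 6 genes. The 4 of Chrng, Chrna1, Chrnb1 and Chrne, with 221 to 250 bases outside the annotated gene body, are shown. That of Chrna9 lies inside its gene model and is not shown. Capitals mark motifs searched on both strands: the E-box CANNTG, bound by myogenic factors such as MyoD and myogenin, including its form CAGCTG, and the N-box CCGGAA, bound by the Ets-family factor GABP. The stretches end at the annotated start or at the first base of the gene model, and are chr1:87205561-87205810 (plus strand), chr2:73580339-73580588 (minus strand), chr11:69795967-69796187 (minus strand) and chr11:70619214-70619444 (minus strand).
Chrng: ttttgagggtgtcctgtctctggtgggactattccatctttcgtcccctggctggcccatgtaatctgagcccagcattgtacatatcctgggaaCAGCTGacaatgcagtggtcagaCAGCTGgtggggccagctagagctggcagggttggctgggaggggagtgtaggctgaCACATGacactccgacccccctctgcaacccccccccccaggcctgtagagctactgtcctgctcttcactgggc
Chrna1: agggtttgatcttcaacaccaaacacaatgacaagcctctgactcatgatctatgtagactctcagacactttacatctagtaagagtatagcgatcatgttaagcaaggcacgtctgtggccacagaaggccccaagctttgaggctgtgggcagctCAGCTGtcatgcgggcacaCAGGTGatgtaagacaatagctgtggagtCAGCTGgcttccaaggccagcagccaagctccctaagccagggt
Chrnb1: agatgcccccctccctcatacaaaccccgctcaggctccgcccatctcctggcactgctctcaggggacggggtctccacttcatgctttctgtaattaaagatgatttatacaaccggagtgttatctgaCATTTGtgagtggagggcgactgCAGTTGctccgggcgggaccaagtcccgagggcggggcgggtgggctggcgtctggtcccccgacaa
Chrne: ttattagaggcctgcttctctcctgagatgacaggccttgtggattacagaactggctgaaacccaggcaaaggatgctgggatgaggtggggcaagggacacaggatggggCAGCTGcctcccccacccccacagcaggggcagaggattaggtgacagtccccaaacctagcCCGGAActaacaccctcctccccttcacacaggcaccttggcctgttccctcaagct
In the 250 bases before the start, Chrng, Chrna1 and Chrnb1 each held 3 E-boxes, Chrna9 held 2 and Chrne held 1. Both E-boxes of Chrna9, at -96 and -13, lie inside its gene model. CAGCTG was present in 4 of the 5 windows, in Chrng at -155 and -132, in Chrna1 at -92 and -44, in Chrne at -138 and in Chrna9 at -13, and not in Chrnb1, whose E-box at -29 lies inside the gene model and is not printed. The N-box was found in Chrne alone, at -76. Of all 32851 promoter windows of this length, 66.2% held an E-box, 13% held CAGCTG, which is also an E-box, and 12% held the N-box. A match describes these letters and shows no binding.

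Denervation raised 8 of the 9 probes in both genotypes and at both times, and the remaining probe, that of Chrne, fell or did not pass. At day 3 the 8 probes called higher compare with 16.2% of all kept probes in KO and 16.2% in WT muscle, and the 1 called lower with 14.3% in KO and 15.4% in WT. At day 14 the 8 called higher compare with 15.9% of all kept probes in KO and 18.8% in WT muscle, and Chrne, lower in KO only, with 15.6%. The denervated and control samples did not overlap in 9 of 9 probes in KO and 9 of 9 in WT muscle at day 3, against 34.4% and 46% of all kept probes, nor in 9 of 9 in KO and 8 of 9 in WT muscle at day 14, against 47.5% and 49.2%. The probes of Chrna1, Chrnd and Chrng were detected on too few control arrays to be kept by those alone. They passed the detection filter through denervated arrays, and the genes were chosen with earlier results of these data known. The shares therefore describe the members and do not test them. The median over the 9 probes was 2.10 log2 in KO and 2.36 log2 in WT muscle at day 3, and 2.21 log2 in KO and 2.68 log2 in WT muscle at day 14, where the median over all probes lay between -0.01 and 0.01. A probe was called at a Benjamini-Hochberg adjusted p under 0.05 over all kept probes, with the moderated statistics of limma. For probes that no control array detected, the text gives a lower limit of the fold, "at least N-fold", set on each array against the lowest signal that counted as detected, or against what the probe itself gave where that was more. Where that limit is not above 1, no fold is given.

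Chrng, the gamma subunit of the fetal receptor, had the largest rise of the 6 genes on its lead probe, with denervated and control samples far apart. In day 3 muscle its lead probe, ILMN_2707570, read 12.28, 12.58 and 12.46 log2 in KO denervated samples and 5.0, 4.70 and 4.88 in KO controls. It read 12.18, 12.72 and 12.61 in WT denervated samples and 5.09, 4.64 and 4.75 in WT controls. Denervated samples stood at least 98.3-fold above controls in KO (adjusted p = 8.13e-17) and at least 102-fold in WT muscle (adjusted p = 5.72e-17), with no control array detecting the probe. At day 14 it read 12.62, 12.41 and 12.73 in KO denervated samples and 4.70, 5.12 and 4.71 in KO controls. It read 14.30, 13.98 and 14.20 in WT denervated samples and 5.89, 6.29 and 5.32 in WT controls. The rise was at least 125-fold in KO muscle (adjusted p = 1.03e-16) and 8.32 ± 0.20 log2 (SE, 320-fold) in WT muscle (adjusted p = 2.24e-17), whose controls were detected on 2 of 3 arrays.

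The other Chrng probe, ILMN_1213304, moved the same way but far less. It lay at 5.80 ± 0.27 log2 in KO denervated and 4.89 ± 0.09 in KO control muscle at day 3 (SD, n = 3), detected on 2 and 0 of 3 arrays, and the measured difference was 0.91 log2 (adjusted p = 0.000432). In WT muscle it changed by 1.11 log2 at day 3, at least 1.18-fold, and by 2.33 log2 at day 14, at least 3.24-fold (adjusted p = 3.92e-05 and 9.4e-10). In KO muscle at day 14 the measured difference was 0.62 log2 (adjusted p = 0.00974), with 1 of 3 denervated and 0 of 3 control arrays detected. In KO muscle no lower limit of the fold above 1 could be set at either time, so these 2 differences are given as measured only. At day 3 the KO call was lost without the 2 KO denervated arrays of most detected probes (0.60 log2, adjusted p = 0.112). The day 14 call was lost without KO denervated replicate 3 (0.38 log2, adjusted p = 0.0974), and both KO calls were lost with the number of detected probes as a covariate (adjusted p = 0.123 at day 3 and 0.0649 at day 14). The 2 Chrng probes thus share a direction and disagree in size, and where on the transcript they lie is not given in the sources used here.

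Chrnd, the delta subunit of adult and fetal receptors, was undetected in control muscle apart from single arrays and rose on all 3 probes. The lead probe, ILMN_2490941, read 9.25, 9.51 and 9.54 log2 in KO denervated samples and 5.07, 5.06 and 5.12 in KO controls at day 3. It read 9.21, 8.79 and 9.28 in WT denervated samples and 5.26, 5.06 and 5.0 in WT controls. The denervated samples were at least 12.2-fold above controls in KO and at least 9.60-fold in WT muscle (adjusted p = 6.54e-15 and 2.94e-14). At day 14 it read 9.64, 9.34 and 9.72 in KO denervated samples and 5.77, 5.62 and 5.32 in KO controls, with 1 control array detected. It read 11.37, 11.20 and 11.22 in WT denervated samples and 5.44, 5.11 and 5.41 in WT controls. The rise was 3.99 ± 0.16 log2 in KO and at least 49.4-fold in WT muscle (adjusted p = 2.82e-14 and 4.29e-17), and denervated and control samples stood apart in each case. Of the other probes, ILMN_2662184 was at least 2.62-fold higher in KO and 2.92-fold in WT denervated muscle at day 3, and at least 4.23-fold in KO and 8.96-fold in WT at day 14. ILMN_1229136 was at least 1.91-fold higher in KO and 2.18-fold in WT denervated muscle at day 3, at least 2.75-fold in KO at day 14, and 3.13 log2 (8.78-fold) in WT at day 14, where 1 of 3 control arrays detected it. The 3 probes of Chrnd share a direction, and the lead probe has the largest changes.

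Chrna1, the alpha subunit that carries the main part of the acetylcholine binding site, was undetected on all 12 control arrays and detected on all 12 denervated ones. At day 3 it read 6.82, 7.01 and 6.74 log2 in KO denervated samples, against 4.87, 5.75 and 4.79 in KO controls. It read 7.32, 7.36 and 7.57 in WT denervated samples, against 4.62, 5.24 and 4.95 in WT controls. At day 14 it read 6.29, 6.40 and 6.17 in KO denervated samples and 6.96, 7.17 and 7.17 in WT denervated samples, against 4.94 to 5.30 over the 6 controls. The rises at day 3 were at least 2.05-fold in KO and 3.01-fold in WT muscle (adjusted p = 9.34e-07 and 2.75e-09). Those at day 14 were at least 1.58-fold in KO and 2.76-fold in WT muscle (adjusted p = 8.03e-05 and 4.53e-08).

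Chrnb1, the beta subunit, was detected on every array and rose by 4.62-fold to 5.55-fold in the 4 comparisons. At day 3 it read 11.51, 11.69 and 11.80 log2 in KO denervated samples, against 9.39, 8.79 and 9.41 in KO controls. It read 11.68, 11.57 and 11.50 in WT denervated samples, against 9.40, 9.25 and 9.25 in WT controls. The rise was 2.47 ± 0.16 log2 (SE, 5.55-fold) in KO and 2.28 ± 0.16 log2 (4.87-fold) in WT muscle (adjusted p = 1.28e-10 and 2.56e-10). In day 14 muscle it read 11.51, 11.39 and 11.46 in KO denervated samples, against 9.08, 9.47 and 9.19 in KO controls. It read 12.15, 12.05 and 12.10 in WT denervated samples, against 9.79 ± 0.23 (SD) over the WT controls. The rise was 2.21 ± 0.16 log2 (4.62-fold) in KO and 2.30 ± 0.16 log2 (4.94-fold) in WT muscle (adjusted p = 4.94e-10 and 1.95e-10).

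Chrne, the epsilon subunit of the adult receptor, was the only one of the 6 genes lower after denervation. At day 3 it read 6.97, 6.40 and 6.69 log2 in KO denervated samples, against 8.94, 8.57 and 8.81 in KO controls. It read 7.11, 6.83 and 7.35 in WT denervated samples, against 8.26, 8.59 and 8.55 in WT controls. It fell by 2.08 ± 0.18 log2 in KO muscle (SE, 4.23-fold, adjusted p = 2.05e-08) and by 1.37 ± 0.18 log2 in WT muscle (2.59-fold, adjusted p = 4.73e-06). By day 14 it read 7.63, 7.45 and 7.13 in KO denervated samples, against 8.19, 8.26 and 7.95 in KO controls. It read 7.96, 8.20 and 8.43 in WT denervated samples, against 8.33, 8.58 and 8.18 in WT controls. In KO muscle it fell by 0.73 ± 0.18 log2 (adjusted p = 0.00414), a call lost with the number of detected probes as a covariate (-0.49, adjusted p = 0.0628). In WT muscle the groups overlapped, and the difference of -0.16 log2 (95% interval -0.55 to 0.22) did not pass (adjusted p = 0.534).

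Chrna9, which pairs with Chrna10 in the hair-cell receptor, rose steeply at day 3 and less at day 14. At day 3 it read 11.31, 11.97 and 11.57 log2 in KO denervated samples, against 6.72, 6.18 and 6.66 in KO controls. It read 11.87, 11.52 and 11.87 in WT denervated samples, against 5.93, 6.63 and 6.99 in WT controls. The rise was 5.10 ± 0.29 log2 (SE, 34.2-fold) in KO and 5.24 ± 0.29 log2 (37.7-fold) in WT muscle (adjusted p = 2.73e-11 and 9.81e-12). At day 14 it read 9.13, 8.76 and 8.0 in KO denervated samples, against 5.98, 6.06 and 6.48 in KO controls. It read 9.16, 8.64 and 8.95 in WT denervated samples, against 5.92, 5.99 and 6.78 in WT controls. The rise was 2.46 ± 0.29 log2 (5.49-fold) in KO and 2.68 ± 0.29 log2 (6.43-fold) in WT muscle (adjusted p = 1.08e-06 and 2.26e-07). Its probe was detected on every array, dim in controls with a detection p of up to 0.0357.

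**Figure D1:**
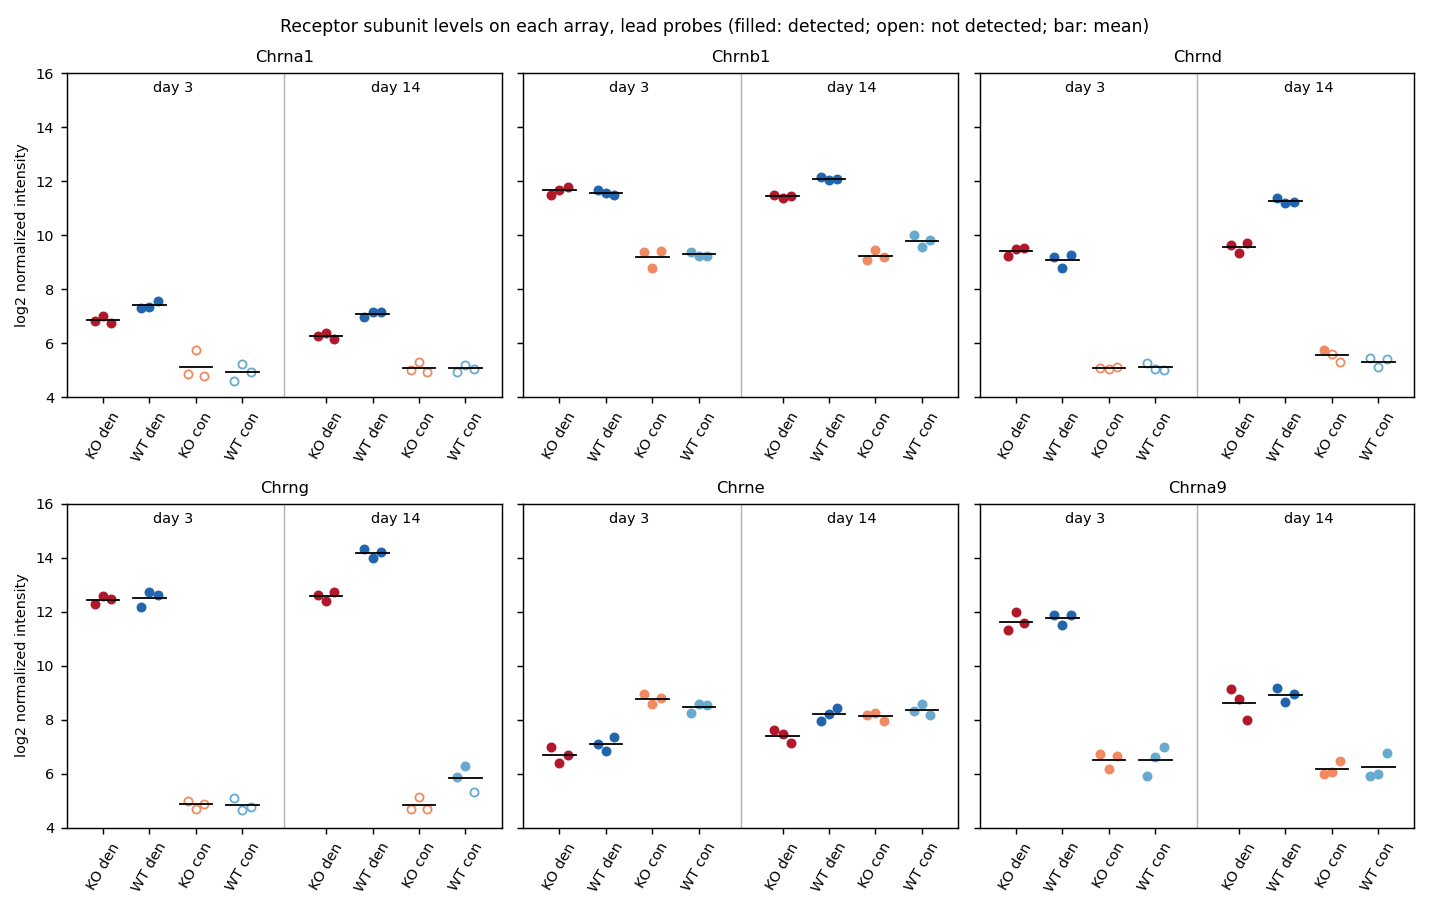
Log2 normalized intensity of each subunit's lead probe (vertical axis) on each of the 24 arrays, by group, with KO left of WT and denervated (den) left of control (con). Filled points were detected, open points were not, and bars are group means. Chrng reaches 12.18 to 14.30 in denervated muscle and Chrne is lowest, at 6.40 to 7.35, in denervated muscle at day 3.

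**Figure D2:**
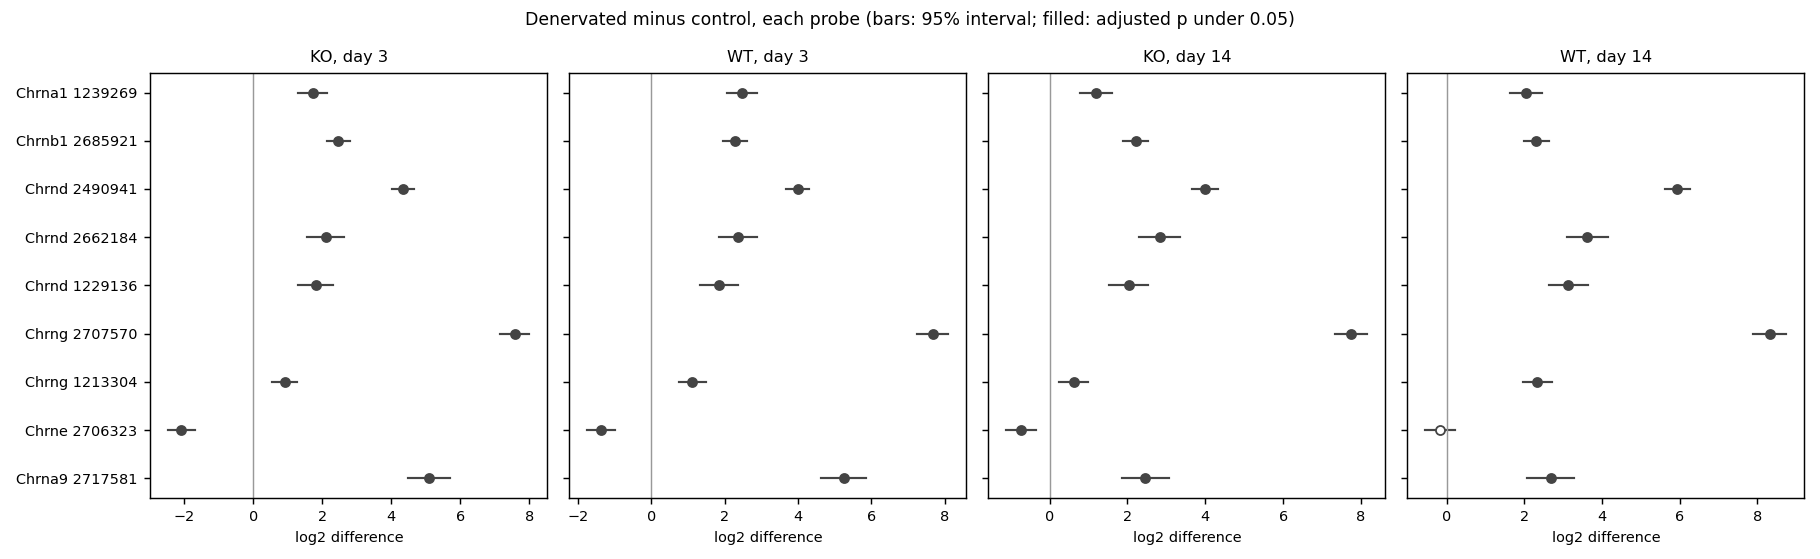
Log2 difference of denervated minus control muscle (horizontal axis) for each of the 9 probes in KO and WT muscle at day 3 and day 14, with 95% intervals; filled points passed at an adjusted p under 0.05. All probes but that of Chrne lie right of 0, and Chrng ranges from 0.62 to 8.32 over its 2 probes.

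Loss of MuRF1 made no difference that passed at day 3 of denervation, and at day 14 all receptor probes except Chrna9 were lower in KO than in WT denervated muscle. At day 3, 0 of 9 probes were called between KO and WT denervated muscle, where 5.07% of all kept probes were called by limma, with 3 of the 9 at an unadjusted p under 0.05. At day 14, 8 of 9 were called lower, where 2.56% of all kept probes were called lower. The median of the 9 probes was -0.17 log2 at day 3 and -1.09 log2 at day 14, and that of all probes 0.03 and 0.00. In 8 of 9 probes at day 14 the 3 KO samples did not overlap the 3 WT samples, against 27.3% of all kept probes. The count of 8 was 4 without WT denervated replicate 3, KO denervated replicate 2 or KO denervated replicate 3. It ranged from 4 to 8 without each sample in turn and was 5 with the authors' processed values, among the member probes.

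Among the subunits called lower at day 14, Chrnd and Chrng differed most. The lead probe of Chrnd averaged 9.57 ± 0.20 log2 in KO and 11.26 ± 0.09 log2 in WT denervated muscle (SD, n = 3), a difference of -1.70 ± 0.16 log2 (SE, 3.24-fold, adjusted p = 7.38e-07). The lead probe of Chrng averaged 12.59 ± 0.17 log2 in KO and 14.16 ± 0.16 log2 in WT denervated muscle, a difference of -1.57 ± 0.20 log2 (2.98-fold, adjusted p = 6.71e-05). The second Chrng probe differed by -1.84 log2 (adjusted p = 1.18e-06), with 1 of 3 KO and 3 of 3 WT arrays detected. Those of Chrnd, ILMN_2662184 and ILMN_1229136, differed by -1.09 and -1.23 log2 (adjusted p = 0.0166 and 0.00508). Both lead probes and the second Chrng probe passed without each of the 6 samples in turn, as did ILMN_1229136. ILMN_2662184 passed without 2 of them and did not pass without WT denervated replicate 1 or 3 or KO denervated replicate 2 or 3 (adjusted p = 0.055 to 0.0946). With the authors' processed values neither ILMN_2662184 nor ILMN_1229136 passed (adjusted p = 0.149 and 0.0701).

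Chrna1, Chrne and Chrnb1 were also lower in KO denervated muscle at day 14, by smaller amounts. Chrna1 averaged 6.28 ± 0.11 log2 in KO and 7.10 ± 0.12 log2 in WT denervated muscle (SD, n = 3), a difference of -0.82 log2 (adjusted p = 0.0215). Chrne averaged 7.40 ± 0.25 log2 in KO and 8.20 ± 0.24 log2 in WT denervated muscle, a difference of -0.79 log2 (adjusted p = 0.0158). Chrnb1 averaged 11.45 ± 0.06 log2 in KO and 12.10 ± 0.05 log2 in WT denervated muscle, a difference of -0.64 log2 (adjusted p = 0.0226). In each the 3 KO samples lay below the 3 WT samples. Chrna1 and Chrne did not pass without WT denervated replicate 2 or 3 or KO denervated replicate 2 or 3 (adjusted p = 0.0513 to 0.0863 for Chrna1 and 0.0503 to 0.0939 for Chrne), and Chrnb1 did not pass without any 1 of 5 samples, all but KO denervated replicate 1 (adjusted p = 0.0572 to 0.0948). With the authors' processed values Chrna1 did not pass (adjusted p = 0.237), nor did Chrnb1 with median centring (adjusted p = 0.0533). Chrna9 averaged 8.63 ± 0.58 log2 in KO and 8.91 ± 0.26 log2 in WT denervated muscle, and the difference of -0.28 log2 (95% interval -0.89 to 0.32) did not pass (adjusted p = 0.669).

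At day 3 the same comparison spanned both signs. Chrna1 differed by -0.56 log2 between KO and WT denervated muscle (95% interval -0.97 to -0.15, adjusted p = 0.0971) with no overlap of the samples, as in 1 of 9 probes against 23.2% of all kept probes, and it passed with an offset of 50 (-0.45, adjusted p = 0.0286). Chrnd differed by 0.34 log2 on its lead probe and by -0.17 and -0.20 log2 on the others, Chrne by -0.41, Chrng by -0.07 and -0.27, Chrna9 by -0.14 and Chrnb1 by 0.09. Of cell markers, the fibroblast gene Dcn and the fast myosins Myh1 and Myh4 were higher in KO than in WT denervated muscle at day 3, and Cdh15 of satellite cells, Sox10 of Schwann cells and Ckm of fibres were at day 14. Summed Schwann cell marker signal was 793 to 1212 in KO and 462 to 660 in WT denervated muscle at day 14, and summed fibroblast marker signal was 27247 to 28824 in KO and 21499 to 25871 in WT. The fibre marker sum was 349914 to 391717 in KO and 368546 to 386396 in WT denervated muscle at day 14. Leukocyte markers summed to 2856 to 3375 in KO and 1486 to 2598 in WT denervated muscle at day 14, and adipocyte markers to 2430 to 2764 in KO and 1171 to 1658 in WT. The part of these cells in the receptor difference was not tested.

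In control muscle no probe passed between the genotypes at day 3, and 2 of 9 did at day 14. At day 3, 0 of 9 probes were called between KO and WT controls, where 0.527% of all kept probes were called, and none of the 9 had an unadjusted p under 0.05 in limma. No probe kept the 3 KO and 3 WT samples apart at day 3, against 14.7% of all kept probes, and 3 of 9 did at day 14, against 31.1%. At day 14, 2 of 9 were lower in KO, where 2.73% of all kept probes were. Chrng, on its lead probe, was undetected on all 3 KO control arrays and detected on 2 of 3 WT control arrays, at least 1.16-fold lower in KO (-0.99 log2 as measured, adjusted p = 0.00985), a call lost without WT control replicate 2 (-0.76 log2, adjusted p = 0.0729), with only the compared samples in the fit (adjusted p = 0.0693) and with the mean of both probes (-0.56, adjusted p = 0.0524). Chrnb1 averaged 9.25 ± 0.20 log2 in KO and 9.79 ± 0.23 log2 in WT controls (SD, n = 3), a difference of -0.55 log2 (adjusted p = 0.0465) that did not pass without any 1 of the 6 samples (adjusted p = 0.0585 to 0.162).

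**Figure D3:**
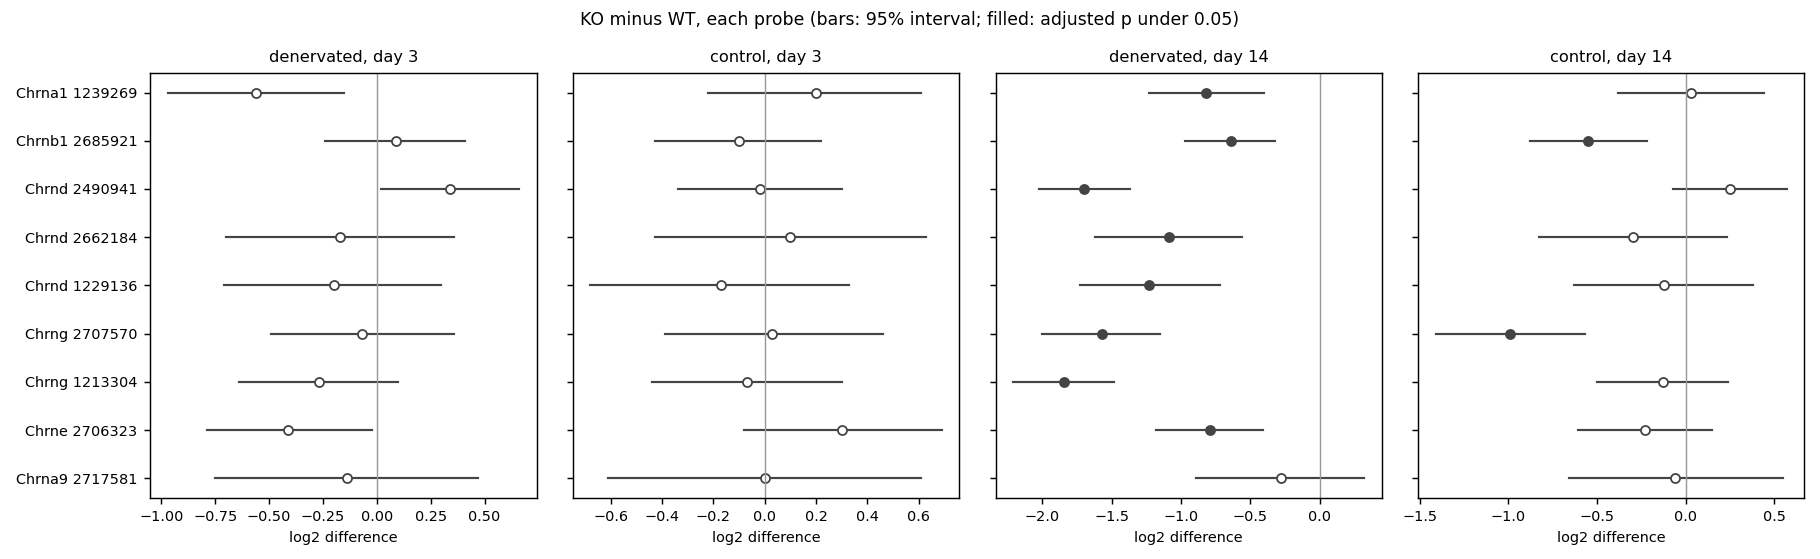
Log2 difference of KO minus WT muscle (horizontal axis) for each of the 9 probes in denervated and control muscle at day 3 and day 14, with 95% intervals; filled points passed at an adjusted p under 0.05. In denervated muscle at day 14 the 8 filled points lie between -1.84 and -0.64.

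Whether the response to denervation itself differed between genotypes was tested as an interaction, KO minus WT of the denervated minus control difference. At day 3, 0 of 9 probes passed in limma, where 0.632% of all kept probes did, with Chrna1 (-0.76 log2) and Chrne (-0.71 log2) at an unadjusted p under 0.05. At day 14, 3 of 9 were lower, where 5.44% of all kept probes were: the lead probe of Chrnd (-1.95 ± 0.22 log2, SE, adjusted p = 8.02e-05), its probe ILMN_1229136 (-1.10 log2, adjusted p = 0.0458) and the second probe of Chrng (-1.71 log2, adjusted p = 0.000579). The third Chrnd probe, ILMN_2662184, did not pass (-0.79 log2, adjusted p = 0.173), though it did with an offset of 50 (-0.83, adjusted p = 0.041). For the Chrnd lead probe the denervated samples minus the mean of their controls were 4.07, 3.77 and 4.15 log2 in KO and 6.05, 5.87 and 5.90 log2 in WT muscle. The lead probe of Chrng gave 7.77, 7.56 and 7.89 log2 in KO and 8.46, 8.14 and 8.37 log2 in WT muscle, an interaction of -0.58 log2 (95% interval -1.18 to 0.02) that did not pass (adjusted p = 0.212). It passed with an offset of 50 (-1.02, adjusted p = 0.00352) and with the mean of both Chrng probes (-1.15, adjusted p = 0.00464). Chrna1 missed the threshold at -0.85 log2 (adjusted p = 0.0594) and passed under 6 of 11 alternatives, 1 of them at an adjusted p that rounds to 0.05, with adjusted p-values over all of them of 0.0148 to 0.309. For Chrnb1 the interaction was -0.09 log2 (95% interval -0.56 to 0.37), with denervated and control muscle both lower in KO. The ILMN_1229136 call was lost without any 1 of 9 of the 12 samples (adjusted p = 0.0547 to 0.129), all but WT control replicate 3, WT denervated replicate 2 and KO control replicate 3, and under 4 other alternatives: the authors' processed values, no filter, the contrast's samples alone and the replicate block (adjusted p = 0.0551 to 0.243). In the controls of the 3 called probes 1 of 6 arrays at most detected the probe, so the control side of these differences is signal near background.

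**Figure D4:**
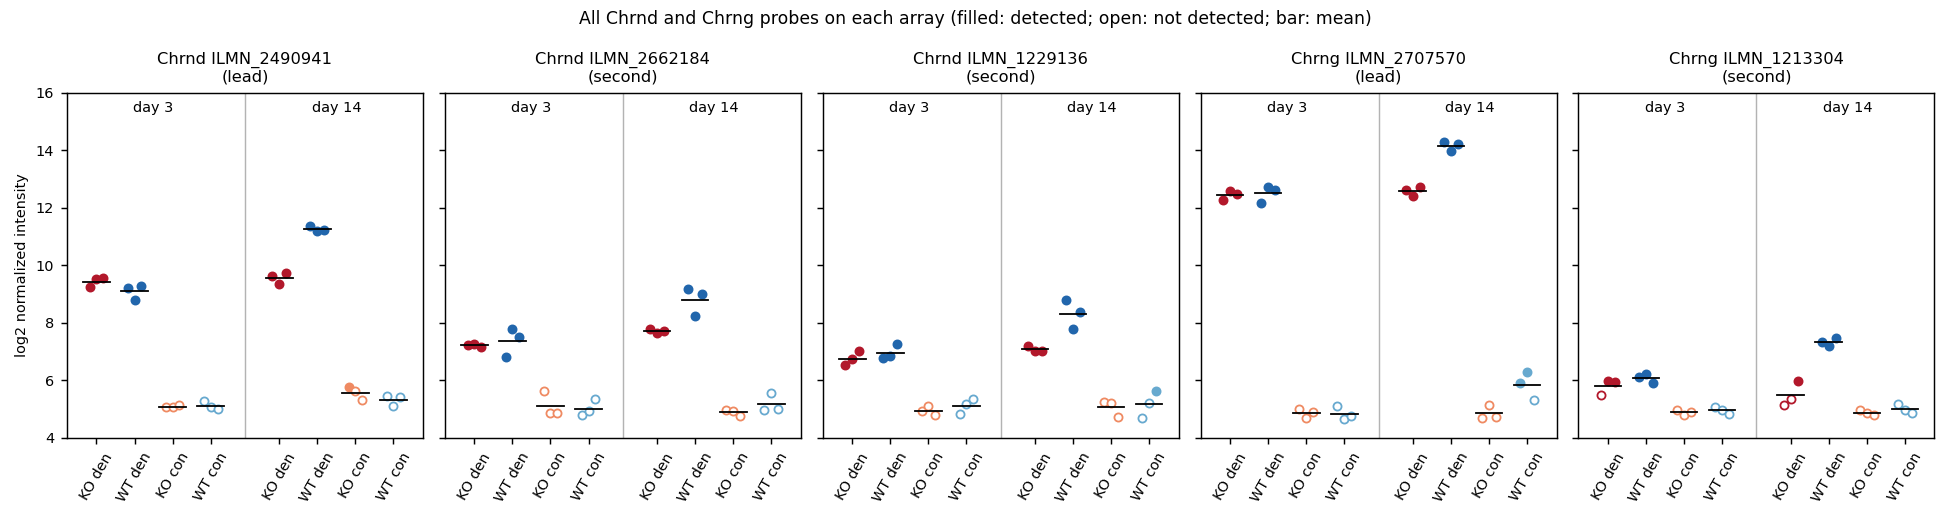
Log2 normalized intensity (vertical axis) of the 3 Chrnd and 2 Chrng probes on each array, by group, with KO left of WT and denervated (den) left of control (con); filled points were detected, open points were not, and bars are group means. WT denervated muscle at day 14 has the highest mean on each of the 5 probes.

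The response changed with time in different ways for different subunits. In WT muscle, day 14 minus day 3 of the denervation response was positive for all 3 Chrnd probes, for the second Chrng probe and for Chrne, and negative for Chrna9, so that 5 of 9 were higher and 1 lower, where 5.65% and 5.68% of all kept probes were. The Chrnd lead probe gained 1.95 ± 0.22 log2 (SE, adjusted p = 1.23e-05), and the other Chrnd probes, ILMN_2662184 and ILMN_1229136, gained 1.25 and 1.29 log2 (adjusted p = 0.0275 and 0.018). The second Chrng probe gained 1.22 log2 (adjusted p = 0.00322), and the Chrng lead probe gained 0.65 log2 and did not pass (adjusted p = 0.154), though it did with an offset of 50 (1.10, adjusted p = 0.00129) and without WT control replicate 2 of day 14 (0.88, adjusted p = 0.049). The WT controls detected the lead and ILMN_2662184 probes of Chrnd and the second Chrng probe on 0 of 6 arrays and ILMN_1229136 on 1 of 6, so these gains subtract control signal near background. Chrne, whose fall eased, gained 1.21 ± 0.26 log2 (adjusted p = 0.00455). Chrna9, whose rise shrank, changed by -2.55 ± 0.41 log2 (adjusted p = 0.000484). The call for ILMN_2662184 was lost without any 1 of 6 samples (adjusted p = 0.0629 to 0.0786): WT denervated replicate 1 and control replicate 3 of day 3, and WT denervated replicates 1 and 3 and control replicates 1 and 3 of day 14. That for ILMN_1229136 was lost without replicate 1 of either WT group of day 14 (adjusted p = 0.0552 and 0.0566), and with the authors' processed values neither passed (adjusted p = 0.239 and 0.165). ILMN_2662184 also did not pass in a fit of the contrast's samples alone (adjusted p = 0.0619).

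In KO muscle only Chrne and Chrna9 passed, 1 of 9 higher and 1 of 9 lower, where 7.4% and 8.53% of all kept probes were. Chrne gained 1.35 ± 0.26 log2 (SE, adjusted p = 0.002) and Chrna9 changed by -2.64 ± 0.41 log2 (adjusted p = 0.000505). Chrna1 passed (-0.84 log2, adjusted p = 0.0232) without KO control replicate 2 of day 3, and with median centring (-0.73 log2, adjusted p = 0.0426), against -0.53 log2 and 0.202 as reported. Chrnb1 passed with median centring (-0.82 log2, adjusted p = 0.0383), against -0.26 log2 and 0.445 as reported. Without the 2 KO denervated day 3 arrays of most detected probes the Chrne value was 1.07 and did not pass (adjusted p = 0.0868). The Chrnd lead probe changed by -0.35 log2 (95% interval -0.81 to 0.10) and the Chrng lead probe by 0.17 log2 (-0.43 to 0.77). The other probes of these genes had the opposite sign, 0.73 log2 for ILMN_2662184 (-0.02 to 1.48) and 0.22 log2 for ILMN_1229136 (-0.50 to 0.93) of Chrnd and -0.29 log2 for ILMN_1213304 (-0.81 to 0.23) of Chrng, and none of the 5 passed. The change of the day effect with genotype passed for the Chrnd lead probe (-2.31 ± 0.31 log2, adjusted p = 0.00089) and for the second Chrng probe (-1.51 ± 0.35 log2, adjusted p = 0.0137; -1.20 and 0.123 without the 2 day 3 KO arrays named above), 2 of 9, where 5.69% of all kept probes were lower. The other Chrnd probes did not pass, at -0.52 log2 for ILMN_2662184 and -1.08 log2 for ILMN_1229136 (adjusted p = 0.549 and 0.154). Nor did the Chrng lead probe (-0.49 log2, adjusted p = 0.475), which passed with an offset of 50 (-0.94, adjusted p = 0.0389) and with the mean of both probes (-1.0, adjusted p = 0.0493). For Chrna9 it was -0.09 log2 (95% interval -1.30 to 1.13) and for Chrne 0.15 log2 (-0.62 to 0.91), and neither passed. The labels name no slide or scan, so whether day 3 and day 14 arrays were run together was not tested.

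Control muscle alone was also compared between the days, and counts out of 9 probes cannot be set closely against the shares given. In KO muscle day 14 minus day 3 was 0.49 log2 for the Chrnd lead probe (adjusted p = 0.022), detected on 1 of 6 arrays, and -0.64 log2 for Chrne (adjusted p = 0.0125), 1 of 9 higher and 1 lower, where 17.1% and 14% of all kept probes were. In WT muscle it was 1.01 log2 for Chrng as measured (adjusted p = 0.00259; detected on 2 of 3 arrays at day 14 and none at day 3) and 0.49 log2 for Chrnb1 (adjusted p = 0.038), 2 of 9 higher, where 8.33% of all kept probes were. With the number of detected probes as a covariate, Chrnd (0.26, adjusted p = 0.537), Chrne (-0.31, adjusted p = 0.517) and Chrnb1 (0.24, adjusted p = 0.586) did not pass. Chrne was at -0.11 log2 with median centring (adjusted p = 0.656). Chrnd did not pass without replicate 1 or 2 of either KO group (adjusted p = 0.0542 to 0.107), Chrne without KO replicate 1 of day 3 or 3 of day 14 (0.0548 to 0.0587), and Chrnb1 without any 1 WT sample except replicate 2 of day 14 (0.0552 to 0.153).

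Ordered by mean, the 8 groups fell apart the same way for 5 genes, all denervated groups above all controls. Within the controls, neighbouring groups overlapped on the lead probes, except that WT control day 14 stood clear for Chrnb1 and Chrng. Within the denervated groups each of these genes had at least 1 step without overlap. On the lead probes of Chrnd and Chrng, KO denervated day 14, WT denervated day 3 and KO denervated day 3 overlapped their neighbours, and WT denervated day 14 stood clear above them. Chrnb1 was also highest in WT denervated day 14 muscle, at 12.10 log2, clear of KO denervated day 3 muscle at 11.67 log2. Chrna1 was highest in WT denervated day 3 muscle at 7.42 log2, clear of WT denervated day 14 muscle at 7.10 log2. Chrna9 was highest at day 3, with KO at 11.62 log2 and WT at 11.75 log2 overlapping. Chrne was lowest in KO denervated day 3 muscle, and the groups from KO control day 14 upward, including WT denervated day 14, overlapped their neighbours.

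The closest profile over the 8 group means was sought among 11045 other genes, as the root mean square of the difference between centred log2 means. Chrnd lay nearest to Runx1, a transcription factor known to be induced by denervation, at 0.44 log2, then to the cell-cycle inhibitor Cdkn1a at 0.45 log2 and Gadd45a at 0.54 log2. Chrng, whose group means spanned 9.33 log2, lay nearest to the ankyrin repeat gene Ankrd1 at 1.17 log2. The keratins Krt18 at 1.30 log2 and Krt8 at 1.32 log2 came next. Chrna1 lay at 0.20 log2 from the replication gene Mcm6 and from Ehd4 and at 0.21 log2 from Spag5. Chrnb1 lay at 0.26 log2 from the atrial and embryonic myosin light chain Myl4 and from Rin1 and at 0.27 log2 from Atoh8. Chrne lay at 0.21 log2 from the transferrin receptor Tfrc, 0.23 log2 from Cdkn1c and 0.26 log2 from Gamt, an enzyme of creatine synthesis. Chrna9 lay at 0.64 log2 from Ttyh1, 0.74 log2 from Slpi and 0.76 log2 from Zfp593. Between the subunits the smallest distance was that of Chrna1 and Chrnb1, at 0.40 log2, and the largest that of Chrng and Chrne, at 4.48 log2. These distances are smaller for genes that move less, and they describe these groups without a test.

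**Figure D5:**
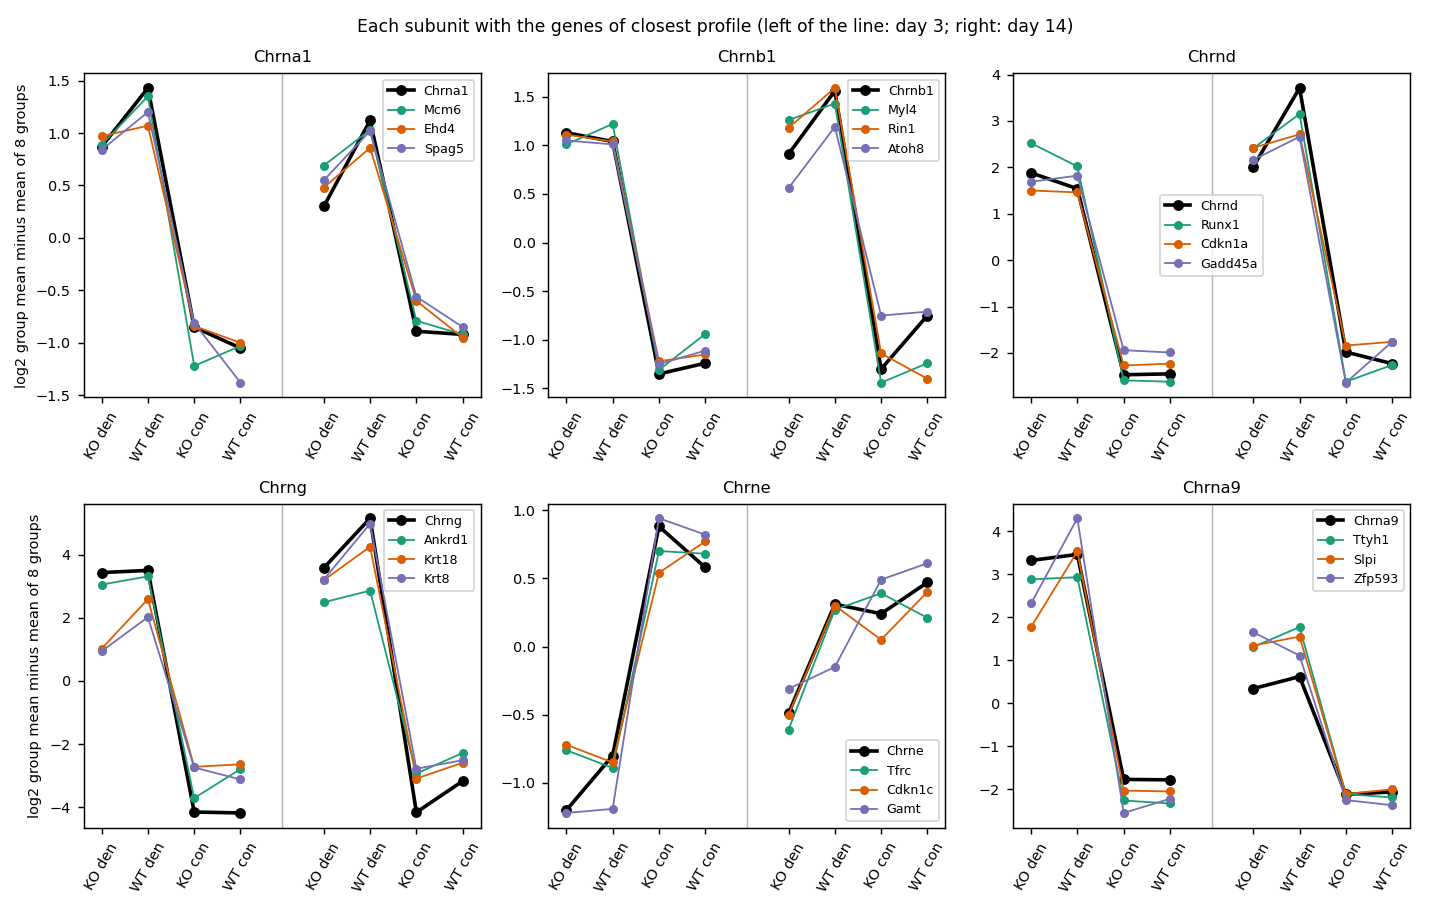
Group means of each subunit's lead probe (black) and of the 3 genes with the closest profile (colours), each minus its own mean over the 8 groups, in log2 units (vertical axis), with KO left of WT, denervated (den) left of control (con), and day 3 left of day 14. For Chrna1 the distances are 0.20 to 0.21, and for Chrng 1.17 to 1.32.

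Of the 10 other nicotinic subunits, 6 had no kept probe and 4 did, among which Chrna10 alone was called. Chrna10 averaged 9.59 ± 0.08 log2 in KO denervated and 10.12 ± 0.07 log2 in KO control muscle at day 3 (SD, n = 3), a change of -0.53 (adjusted p = 0.00489). In WT muscle it averaged 8.59 ± 0.20 log2 after denervation and 10.33 ± 0.05 log2 in controls, a change of -1.73 (adjusted p = 2.03e-09). At day 14 it changed by -1.21 in KO and -1.69 in WT muscle (adjusted p = 4.88e-07 and 2.44e-09), and it was higher in KO than in WT denervated muscle by 1.00 log2 at day 3 and 0.54 log2 at day 14 (adjusted p = 0.000205 and 0.0266). Chrna10 thus fell where Chrna9 rose. The median over the 4 kept genes of this list lay between -0.41 and -0.17 in the 4 denervation comparisons. In each, 1 of 4 was lower, or 25%, where 14.3% to 17.9% of all kept probes were. Between KO and WT denervated muscle 1 of 4 was higher at either time. Of all kept probes, 5.07% were called in either direction at day 3 and 1.87% were higher at day 14. A list of 4 lead probes cannot be set closely against such shares.

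Genes that cluster the receptor and build the postsynaptic apparatus had 18 kept members of 23. After denervation 8 rose and 2 fell in KO and 7 rose and 2 fell in WT muscle at day 3, and 6 rose and 2 fell in KO and 7 rose and 2 fell in WT muscle at day 14. Of all kept probes, 16.2% rose and 14.3% fell in KO and 16.2% and 15.4% did in WT muscle at day 3, and 15.9% rose and 15.6% fell in KO and 18.8% and 17.9% did in WT muscle at day 14. The falls, 11.1% of the list in each comparison, were below those shares, and the rises were 33.3% to 44.4%. Lists here and below count 1 lead probe per gene, while the shares count all kept probes. Their percentages are thus not like for like, and the lists were chosen with earlier results of these data known. The median change was 0.50 log2 in KO and 0.08 log2 in WT muscle at day 3, and 0.23 log2 in KO and 0.28 log2 in WT muscle at day 14. Musk, the receptor tyrosine kinase that organises the synapse, read 8.89 ± 0.23 log2 in KO denervated and 9.32 ± 0.17 log2 in WT denervated muscle at day 3 and was undetected in all controls, a rise of at least 8.42-fold in KO and at least 11.3-fold in WT muscle. Ncam1, an adhesion molecule spread along denervated fibres, rose by 2.81 log2 in KO and 2.89 log2 in WT muscle at day 3 (adjusted p = 6.15e-11 and 1.96e-11), and by 3.17 and 3.91 log2 at day 14 (adjusted p = 5.71e-12 and 1.41e-13). Ache, the acetylcholinesterase of the synaptic cleft, detected on 1 of 3 arrays of either denervated group at day 14, fell by 1.84 log2 in KO and 1.90 log2 in WT muscle at day 14 (adjusted p = 7.6e-05 and 3.85e-05). Between KO and WT denervated muscle none of the 18 passed at day 3, where 5.07% of all kept probes were called. At day 14 Musk (-0.93), Ncam1 (-0.93), the agrin receptor Lrp4 (-0.74) and utrophin, Utrn (-0.62), were lower in KO (adjusted p = 0.00103, 0.00248, 0.0135 and 0.0298). These were 4 of 18, or 22.2%, where 2.56% of all kept probes were lower. The median over the list was then -0.25 log2.

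Factors known to act on subunit transcription had 22 kept members of 24. After denervation 8 rose and 2 fell in KO and 11 rose and 2 fell in WT muscle at day 3, and 12 rose and 3 fell in KO and 11 rose and 3 fell in WT muscle at day 14. The rises were 36.4% to 54.5% of the list, against 15.9% to 18.8% of all kept probes, and the falls 9.09% to 13.6%, below the 14.3% to 17.9% of all kept probes. As above, the list counts lead probes and the shares count all kept probes, so the percentages are not like for like. The median change was 0.31 log2 in KO and 0.50 log2 in WT muscle at day 3, and 0.61 log2 in KO and 0.34 log2 in WT muscle at day 14. Runx1 rose by at least 23.4-fold in KO and 16.4-fold in WT muscle at day 3, and the myogenic factor Myod1 by at least 4.60-fold in KO and 4.21-fold in WT. Myog, myogenin, rose by at least 4.18-fold in KO and 6.46-fold in WT muscle at day 3. Hdac4, a class II histone deacetylase, rose by 2.51 log2 in KO and 3.14 log2 in WT muscle at day 14 (adjusted p = 1.23e-08 and 2.84e-10). In denervated muscle at day 14 Myod1 (-0.81) and Runx1 (-0.74) were lower and Mef2c (0.75) higher in KO than in WT (adjusted p = 0.00761, 0.0372 and 0.0015), 2 lower and 1 higher of 22, where 2.56% and 1.87% of all kept probes were. None passed at day 3, where 5.07% of all kept probes were called.

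Genes of receptor assembly and turnover had 10 kept members of 11. After denervation 4 rose and 1 fell in KO and 5 rose and 1 fell in WT muscle at day 3, and 2 rose and none fell in KO and 4 rose and 2 fell in WT muscle at day 14. The 2 rises in KO at day 14, 20% of the list, were near the 15.9% of all kept probes, and the 2 falls in WT, also 20%, near the 17.9%. The other rises were 40% to 50% of the list, and the single falls at day 3 were 10%, below the 14.3% and 15.4% of all kept probes. Here too lead probes were set against all kept probes. The median change was 0.33 log2 in KO and 0.90 log2 in WT muscle at day 3, and -0.03 log2 in KO and 0.32 log2 in WT muscle at day 14. Sqstm1, the autophagy adaptor p62, rose by 0.92 log2 in KO and 1.49 log2 in WT muscle at day 3 (adjusted p = 1.48e-05 and 1.37e-08), and by 1.39 log2 in KO and 0.49 log2 in WT muscle at day 14 (adjusted p = 3.86e-08 and 0.00572). Myo5a, a myosin motor of vesicle transport at the synapse, rose by 0.89 log2 in KO and 1.75 log2 in WT muscle at day 3 (adjusted p = 0.0027 and 1.09e-06). Between KO and WT denervated muscle Sqstm1 differed by -0.50 log2 at day 3 (adjusted p = 0.0333), 1 of 10, where 5.07% of all kept probes were called. None of the 10 passed at day 14, where 2.56% of all kept probes were lower and 1.87% higher.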

How the data were processed

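RNA from 24 muscle samples was measured on Illumina 1-colour BeadChips. The deposited table gives, per the file headers, a non-normalized intensity and a detection p-value for each of 46632 probes, produced with BeadStudio 3.2.3 per the submitters' processing notes. The authors' processed intensity values, deposited separately, served as an alternative, negative values set to 0 and log2 taken after adding 16. Samples were grouped by their labels, 3 in each of 8 groups. GEO's platform annotation gave 29976 probes 1 symbol, 10 several and 16646 none, and 29921 were matched to RefSeq by gene ID.

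The intensities were background-corrected and quantile-normalized with neqc (offset 16) in limma 3.58.1 (R 4.3.3), and 21997 probes with a detection p-value under 0.05 on at least 3 arrays were kept. A linear model with 1 mean per group and moderated statistics was fitted to all kept probes, with Benjamini-Hochberg adjustment over them and calls at 0.05. Precision is limited by having 3 arrays a group. The median SE was 0.200 log2 for a difference of 2 groups, 0.283 for an interaction and 0.400 for the 3-way term. The fit was tested on simulated data.

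All 9 member probes are named. From each list the 3 largest called rises and falls in a denervation comparison may be named, or all calls where there are 5 or fewer. The 3 nearest genes per lead probe passed over predicted gene models and clone names. The members and lists were chosen with earlier results of these data known. The alternatives were median centring, the authors' values, an offset of 50, no or a stricter detection filter, 1 lead probe or the mean of probes per gene, only the compared samples, the replicate number as a block, the number of detected probes as a covariate, leaving out the 2 day 3 denervated KO arrays of most detected probes, and leaving out each sample in turn.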

Additional observations from a re-analysis of the deposited data

Results flagged for a closer look

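Differences between effects that passed the limma interaction test are listed here with their log2 values. The response to denervation at day 14 was smaller in KO than in WT muscle for the Chrnd probes ILMN_2490941 (-1.95) and ILMN_1229136 (-1.10) and for the Chrng probe ILMN_1213304 (-1.71). In WT muscle the response was larger at day 14 than at day 3 for the Chrnd probes ILMN_2490941 (1.95), ILMN_2662184 (1.25) and ILMN_1229136 (1.29) and for the Chrng probe ILMN_1213304 (1.22).

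Chrne changed between the days by 1.35 in KO and 1.21 in WT muscle, and Chrna9 by -2.64 in KO and -2.55 in WT muscle. The change of the day effect with genotype passed for the Chrnd probe ILMN_2490941 (-2.31) and the Chrng probe ILMN_1213304 (-1.51).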

How the results depend on the processing

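No value of a member probe that was called changed sign. Under 11 alternatives 1345 member values kept their side of the threshold, 17 passed newly and 33 no longer passed, and over the 24 left-out samples the numbers were 1133, 2 and 53. Whether the replicate numbers pair the samples is not stated in the labels. With group means removed, correlations of same-numbered samples ran from -0.25 to 0.39, and 1 of 24 pairs was over 0.1. With 3 samples a group, these correlations cannot settle whether samples were paired. With the replicate block, 1 of the member probes was called between KO and WT controls at day 14, Chrna1 passed for the interaction at day 14 (-0.85, adjusted p = 0.0321), and Chrnb1 between controls at day 14 (adjusted p = 0.0545) and the Chrnd probe ILMN_1229136 for that interaction (adjusted p = 0.0551) did not. The cause of these changes was not tested. Slide as a block was not run, because the column names give no slide, and the settings with 1 value per gene give no probe counts.

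For Chrna1 the day 14 interaction also passed with median centring (-0.89), an offset of 50 (-0.63), the stricter filter (-0.85), the lead probe per gene (-0.85, at an adjusted p that rounds to 0.05) and only the compared samples (-0.85). For Chrng it passed with an offset of 50 (-1.02) and the mean of probes (-1.15). Between KO and WT denervated muscle, Chrnb1 at day 14 did not pass with median centring (-0.76), Chrna1 at day 14 did not with the authors' values (-0.81), and Chrna1 at day 3 passed with an offset of 50 (-0.45). Chrne in KO muscle at day 14 did not pass with the covariate (-0.49). Without each sample in turn, the day 14 difference of KO and WT denervated muscle ranged from -0.89 to -0.76 for Chrna1, -0.67 to -0.61 for Chrnb1 and -0.91 to -0.66 for Chrne.

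Of member probes called, KO against WT controls at day 14 gave 1 with median centring, the authors' values and no filter and 0 with only the compared samples, and 0 to 1 without each sample. KO against WT denervated gave 1 at day 3 with an offset of 50, and at day 14 it gave 5 with the authors' values and 4 to 8 without each sample. The day 14 interaction gave 6 with an offset of 50. The day response in KO gave 4 with median centring and 1 without the 2 arrays, and the 3-way term gave 1 without them. Between days in KO controls the count was 1 with median centring, offset 50 and only the compared samples, 0 with the covariate, and 0 to 2 without each sample. In WT controls it was 1 with only the compared samples and with the covariate, and 1 to 2 without each sample.

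Of all probes called, median centring gave 2010 for KO against WT denervated at day 3, 38 and 573 for controls at day 3 and day 14, 7562 for the day response in KO and 6395 between days in WT controls. The day 3 interaction gave 91 with the authors' values and 269 with an offset of 50. With only the compared samples all probes called were 3477 for denervation in KO at day 3, 152 for KO against WT denervated at day 3, 23 and 617 for controls at day 3 and day 14, 33 for the day 3 interaction, 1650 for the day response in KO and 4120 between days in KO controls. With the covariate they were 2367 for denervation in KO at day 3, 58 and 2385 for KO against WT denervated at day 3 and day 14, 208 for controls at day 3, 22 and 3679 for the interactions at day 3 and day 14, 1488 for the day response in KO, 1111 for the 3-way term, and 642 and 682 between days in KO and WT controls. Without the 2 arrays they were 2862 for denervation in KO at day 3, 45 for KO against WT denervated at day 3, 10 for the day 3 interaction, 302 for the day response in KO and 114 for the 3-way term.

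Without each sample in turn, all probes called ranged from 199 to 3297 for KO against WT denervated at day 3 (3297 without KO denervated replicate 1, against 1115 with all samples) and from 388 to 859 at day 14. They ranged from 51 to 741 and from 244 to 862 for controls at day 3 and day 14, from 62 to 1141 and from 1032 to 2127 for the interactions at day 3 and day 14, from 1949 to 5203 for the day response in KO and from 1354 to 4166 for the 3-way term. Between days they ranged from 4418 to 7649 in KO controls and from 2051 to 2444 in WT controls.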
